A study of Saccharomyces cerevisiae with 8 samples.

Results

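The 10 genes described here encode the core enzymes with which Saccharomyces cerevisiae, budding yeast, makes and breaks down its storage carbohydrates trehalose and glycogen: TPS1, TPS2, TPS3, TSL1, NTH1, PGM2, GPH1, GSY1, GSY2 and GLC3. They were taken by gene symbol from a table of 5539 genes, and all 10 were found, each with 2 spots per array. Trehalose is a glucose disaccharide that protects proteins and membranes, and glycogen is a branched glucose store. Yeast fills both when growth slows or stress comes and uses them up when it resumes growth. Many of the genes have stress elements in their promoters that the activators Msn2 and Msn4 bind, and protein kinase A, active in fast growth, holds them down.

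Each of the 8 spotted arrays set RNA of 1 strain given 10 mM glycine in minimal medium (channel 1) against RNA of the same strain grown on minimal medium alone (channel 2), at steady state into early log phase. The bas1 deletion strain Y06015 (replicates 1 and 2) and the bas2 deletion strain Y03803 (replicates 1 and 2) lack partner transcription factors of purine and histidine synthesis. The gcn4 deletion strain Y00249 (1 array) lacks a transcription factor that turns on amino acid biosynthesis, and the shm2 deletion strain Y02669 (1 array) lacks the cytosolic serine hydroxymethyltransferase. BY4741 (replicates 1 and 3) is the parent in which the deletions were made. The labels do not say whether replicates came from separate cultures, so p-values measure the spread between these arrays. The gcn4 and shm2 strains have 1 array each, and their standard errors assume that they vary like the strains with 2. A deleted gene is missing from both channels, so its ratio checks no label here. The source name of bas2 replicate 1 reads BY4741, while title and description give bas2, and a title word of BY4741 replicate 3 names a further gene, zap1.

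Values are log2 ratios averaged over the spots of a gene, minus the median over the genes of the array. So 0 is the middle gene of an array, and a value of 1 is a ratio 2-fold that of the middle gene. Which channel was divided by which is not stated, so every sign stands as deposited. GCV1, a glycine cleavage gene that glycine is known to induce, was looked up after its values had been seen. It stood at -1.17 in bas1 replicate 1, -5.45 in bas2 replicate 1, -4.46 in gcn4, -0.20 in shm2, and -6.27 and -5.27 in BY4741, with no value on replicate 2 of bas1 and of bas2. On that basis a negative ratio is likely higher with glycine, but the shm2 value is too close to 0 to give a direction for that array, and the spot values of bas1 replicate 1 ran against those of BY4741 replicate 1 (Pearson r = -0.304), which leaves the direction unsettled. Ratios were most spread on bas1 replicate 2 (SD over genes 2.07) and least on BY4741 replicate 3 (0.379), and between 3447 and 5536 genes had a value on an array. The number of arrays limits the precision, and the channel signals were not used here.

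On every array the median of the trehalose and glycogen genes lay below the middle gene. It was -0.67 and -0.68 in bas1 replicates 1 and 2, -0.54 and -1.05 in bas2 replicates 1 and 2, -0.69 in gcn4, -1.45 in shm2, and -0.86 and -0.29 in BY4741 replicates 1 and 3. All 10 genes had a value on 6 arrays, 6 had one on bas1 replicate 2, and 8 had one on bas2 replicate 2. No gene of the set passed limma's test (adjusted p under 0.05) in any strain or in any difference between strains. The share of all genes that passed was 0% in each of these 10 comparisons, while between 75 and 616 genes had an unadjusted p under 0.05. In the set, the unadjusted p was under 0.05 for 2 of 6 genes in bas1 (16.9% of all genes), 4 of 8 in bas2 (5.55%), 0 of 10 in gcn4 (11.5%), 4 of 10 in shm2 (4.72%) and 2 of 10 in BY4741 (3.37%). For the differences from BY4741 it was under 0.05 for 0 of 6 in bas1 (14.4%), 0 of 8 in bas2 (1.85%), 0 of 10 in gcn4 (3.49%) and 3 of 10 in shm2 (3.79%), and for 0 of 6 between bas1 and bas2 (2.3%). Without bas1 replicate 1, limma called 641 genes in bas1, 493 in bas1 minus BY4741 and 158 in bas1 minus bas2, none of them in the set.

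With the signs as deposited, the lowest median was on the shm2 array, where all 10 genes were negative, against 50% of all genes, and 7 of 10 stood at -1 or lower, against 7.62% of all genes. With the sign of that array turned, all 10 would be positive, with a median of 1.45. In gcn4, 9 of 10 were negative against 50% of all genes, and 2 of 10 (TSL1 and GSY2) stood at -1 or lower against 16.4%. In bas2, 7 of 8 genes with both values were negative on both arrays (29.1% of all genes), and TSL1 and PGM2 stood at -1 or lower on both (1.33%). In bas1, 4 of 6 were negative on both arrays (25.3% of all genes), and TSL1 and PGM2 again stood at -1 or lower on both (3.25%). On bas1 replicate 2 their spots disagreed, at -0.47 and -1.68 for TSL1 and -0.81 and -2.03 for PGM2. The median gap between the spots of a gene was 0.61 in the set on that array, against 0.16 over all genes. In BY4741, 7 of 10 were negative on both arrays (32.2%), and 0 of 10 stood at -1 or lower on both (0.708%). Without centring, the count at -1 or lower was 0 in bas1, 0 in bas2 and 4 in gcn4, where the median gene then stood at -0.26. With the arrays scaled to a common spread it was 0 in bas1, 0 in gcn4 and 2 in BY4741. The share of all genes under these alternatives is not given, so the counts cannot be set against all genes. Over the genes measured on all 8 arrays, which hold 6 of the set, the count was 1 of 6 in bas1 and 4 of 6 in shm2. With the main centring, TSL1, PGM2 and GSY2 were those of these 6 at -1 or lower in shm2. With the sign of BY4741 replicate 1 turned, the median of the BY4741 strain means was 0.23 in place of -0.57. With the signs of both bas1 arrays turned, the bas1 median was 0.64 in place of -0.64.

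**Figure D1:**
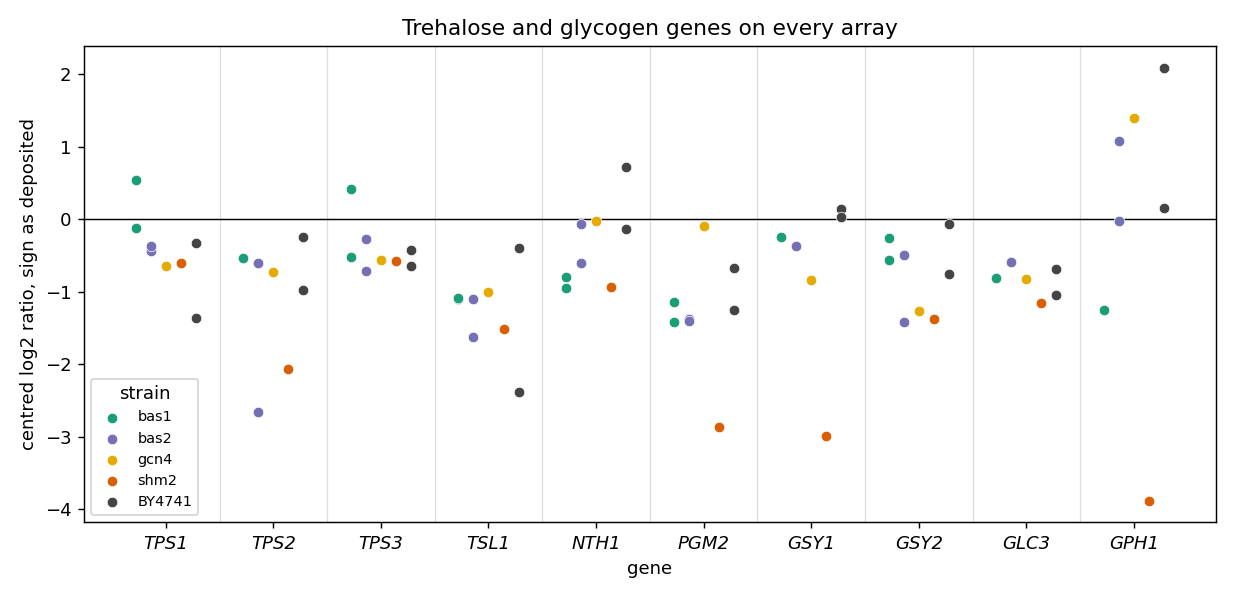
Centred log2 ratio of each of the 10 genes (y axis, sign as deposited) on every array that had a value, 1 point per array, coloured by strain. TSL1, PGM2 and GSY2 are below 0 on all 8 arrays, GPH1 spreads from -3.88 on the shm2 array to 2.09 on BY4741 replicate 1, and the shm2 points of PGM2, GSY1 and GPH1 lie apart from those of other strains.

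Trehalose is made by a complex of 4 subunits. TPS1 (YBR126C) encodes the trehalose-6-phosphate synthase, which joins glucose 6-phosphate and UDP-glucose. TPS1 stood at -0.12 and 0.54 in bas1, -0.44 and -0.37 in bas2, -0.64 in gcn4, -0.61 in shm2, and -1.36 and -0.33 in BY4741. Both bas1 arrays lay above both BY4741 arrays, and the bas2 arrays lay between the BY4741 ones. The difference of bas1 from BY4741 was 1.05 ± 0.52 (SE, n = 2 arrays each), with a limma adjusted p = 0.372. TPS1 was the 1 gene of 6 for which every bas1 array was above every BY4741 array, as 31.4% of all genes were.

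TPS2 (YDR074W) encodes the phosphatase that turns trehalose 6-phosphate into trehalose. It stood at -0.54 on the bas1 array with a value, -0.60 and -2.66 in bas2, -0.73 in gcn4, -2.06 in shm2, and -0.97 and -0.25 in BY4741. All 7 values were negative, and the shm2 array and bas2 replicate 2 were the low ones. On bas2 replicate 2 the TPS2 spots read -3.50 and -1.82, a gap of 1.68 where the median gap between the spots of a gene was 0.17 on that array. The bas2 mean of TPS2 was therefore -0.60 without replicate 2 and -2.66 without replicate 1.

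TSL1 (YML100W) and TPS3 (YMR261C) encode the large regulatory subunits of the complex, which are related proteins. TSL1 stood at -1.10 and -1.08 in bas1, -1.10 and -1.63 in bas2, -1.01 in gcn4, -1.51 in shm2, and -2.38 and -0.40 in BY4741. It was at -1 or lower on 7 of 8 arrays and on at least 1 array of every strain. In log2 units the BY4741 arrays were its extremes, but the spread of the arrays differed. Of all genes, 1.23% stood at -1 or lower on BY4741 replicate 3, against 21.4% on bas1 replicate 2 and 16.4% in gcn4. As a percentile of its array, TSL1 was at 9.21 on BY4741 replicate 3, lower than in gcn4 (16.2) and bas1 (9.52 and 19.9). The percentiles were 3.23 and 7.55 in bas2, 3.38 in shm2 and 0.779 on BY4741 replicate 1. Its means were -1.09 ± 0.51 in bas1 (SE, n = 2, limma adjusted p = 0.319), -1.37 ± 0.51 in bas2 (n = 2, adjusted p = 0.78) and -1.39 ± 0.51 in BY4741 (n = 2, adjusted p = 0.849). TPS3 stayed closer to the middle gene, from -0.71 on bas2 replicate 2 to 0.42 on bas1 replicate 1, and was negative on 7 of 8 arrays. The deletion strains' means of TPS3 lay within 0.47 of the BY4741 mean of -0.53, with a limma standard error of 0.48 or more on each difference.

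NTH1 (YDR001C) encodes the neutral trehalase, which splits trehalose into glucose when growth resumes. It stood at -0.95 and -0.80 in bas1, -0.60 and -0.06 in bas2, -0.02 in gcn4, -0.93 in shm2, and 0.72 and -0.13 in BY4741. The bas1 and shm2 arrays lay below both BY4741 arrays, and the bas2 and gcn4 arrays overlapped them. NTH1 was the 1 gene of 6 with every bas1 array below every BY4741 array, as 22.4% of all genes were. The difference was -1.17 ± 0.48 for bas1 (limma adjusted p = 0.338, n = 2 arrays each) and -1.23 ± 0.58 for shm2 (adjusted p = 1, n = 1 against 2). Over the 8 arrays NTH1 and TPS1 correlated at -0.71, a description of arrays that share strains and media.

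PGM2 (YMR105C) encodes the major phosphoglucomutase, which makes the glucose 1-phosphate that UDP-glucose, the donor for both stores, comes from. It stood at -1.14 and -1.42 in bas1, -1.38 and -1.40 in bas2, -0.10 in gcn4, -2.86 in shm2, and -1.25 and -0.67 in BY4741. The gcn4 value lay close to the middle gene. The shm2 value, 7.26-fold below the middle gene, was the lowest, at the percentile 0.457 of its array. PGM2 had the smallest unadjusted p of the set: 0.00073 in shm2, with a mean of -2.86 ± 0.41 (SE, n = 1) and a limma adjusted p = 0.703. In bas2 the mean was -1.39 ± 0.29 (n = 2, limma adjusted p = 0.722), in bas1 -1.28 ± 0.29 (n = 2, adjusted p = 0.272) and in BY4741 -0.96 ± 0.29 (n = 2, adjusted p = 0.849). PGM2 was the 1 gene of 8 whose bas2 arrays both lay below both BY4741 arrays (20.8% of all genes), and 0 of 8 lay above (19.8%). The spread of the arrays differed, and by percentile of its array PGM2 did not keep this order. It stood at the percentiles 1.95 and 9.98 in bas2, and 6.86 and 3.33 in BY4741. Its paralog PGM1, the minor isoenzyme, stood at 1.06 and 0.92 in bas1 and at 0.09 and 0.54 in bas2. In gcn4 it was at -0.58, in shm2 at 0.47, and in BY4741 at -0.72 and 0.04.

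GSY2 (YLR258W) encodes the major glycogen synthase, and stood at -0.26 and -0.56 in bas1, -0.49 and -1.42 in bas2, -1.26 in gcn4, -1.38 in shm2, and -0.76 and -0.07 in BY4741. It was negative on all 8 arrays, with the gcn4, shm2 and bas2 replicate 2 arrays at -1 or lower. GSY1 (YFR015C), the minor form, had no value on bas1 replicate 2 and bas2 replicate 2. Its values were -0.25 in bas1, -0.37 in bas2, -0.84 in gcn4, -2.99 in shm2, and 0.14 and 0.03 in BY4741. Every deletion strain's value was negative and both BY4741 values were positive, a pattern that 15.8% of all genes had for bas1, 7.28% for bas2, 5.55% for gcn4 and 14.8% for shm2. The sign depends on the centring: before it, the spots of GSY1 read 0.07 and -0.13 on bas1 replicate 1 and 0.11 and -0.02 on bas2 replicate 1. All deletion strains' values lay below both BY4741 values, and the shm2 value lay more than 2 units below any other. The difference of shm2 from BY4741 was -3.08 ± 0.56 for GSY1 (n = 1 against 2, limma unadjusted p = 0.00917, adjusted p = 1) and -0.97 ± 0.63 for GSY2 (adjusted p = 1).

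GLC3 (YEL011W) encodes the glycogen branching enzyme. It stood at -0.81 in bas1, -0.59 in bas2, -0.83 in gcn4, -1.15 in shm2, and -1.05 and -0.69 in BY4741, and had no value on replicate 2 of bas1 and of bas2. The range of 0.57 over 6 arrays was the smallest of the set, which has 6 genes measured on all 8 arrays. On these arrays GLC3 lay between the percentiles 3.08 and 20.2 of all genes.

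GPH1 (YPR160W) encodes glycogen phosphorylase, which releases glucose 1-phosphate from glycogen. It stood at -1.25 on the bas1 array with a value, -0.02 and 1.08 in bas2, 1.40 in gcn4, -3.88 in shm2, and 2.09 and 0.15 in BY4741. The gcn4 array, BY4741 replicate 1 and bas2 replicate 2, where 1 spot of 2 had a value, were high, and the shm2 and bas1 arrays were low. The range of 5.97 was the widest of the 10 genes. In gcn4 it was the 1 gene of 10 at 1 or higher, as 13.2% of all genes were. The shm2 value lay 14.7-fold below the middle gene, at the percentile 0.11 of its array. The 2 spots read -3.71 and -4.05, and -3.84 and -4.18 before centring. The difference of shm2 from BY4741 was -5.00 ± 1.05 (n = 1 against 2), at the percentile 0.0551 of all genes, with a limma unadjusted p = 0.00747 and an adjusted p = 1. It was -4.03 without BY4741 replicate 1 and -5.97 without replicate 3.

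**Figure D2:**
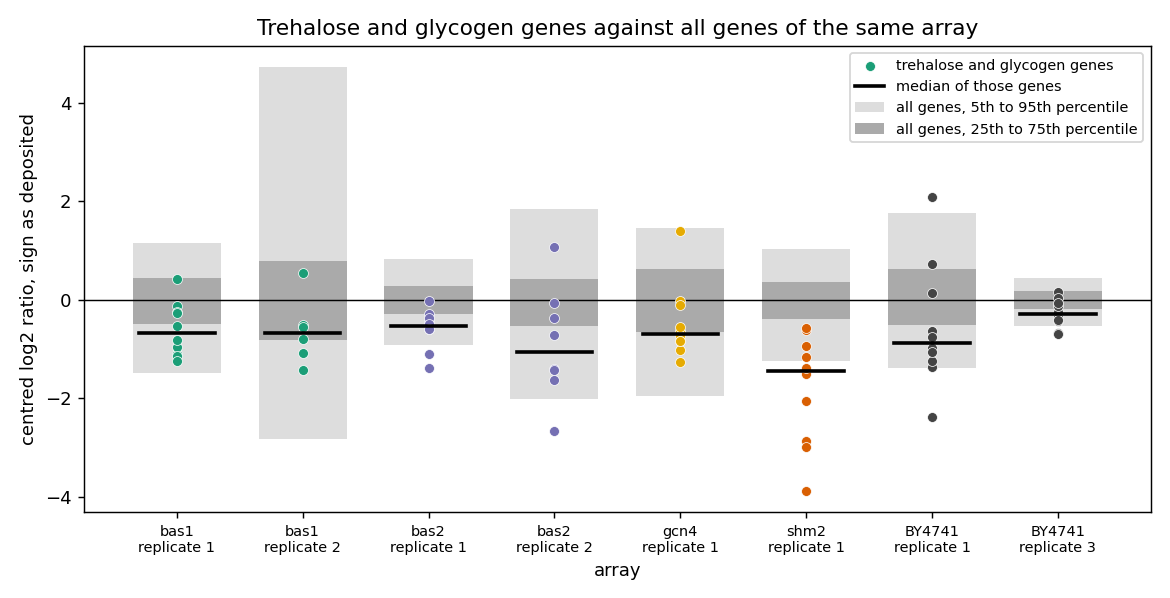
Centred log2 ratios (y axis) of the 10 genes as points and their median as a black bar on each array, over grey bars that span the 5th to 95th and the 25th to 75th percentile of all genes of that array. The median is below 0 on every array, from -1.45 on shm2 to -0.29 on BY4741 replicate 3, and the spread of all genes is widest on bas1 replicate 2.

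Comparisons of the deletion strains with BY4741 address whether the response to glycine depends on the deleted regulator or enzyme. They share the BY4741 arrays, so they are not independent of each other. For shm2 the median difference over the 10 genes was -1.10, against 0.00 over all genes, and 9 of 10 were negative against 50.1% of all genes. The shm2 array lay below both BY4741 arrays for 7 of 10 genes, namely TPS2, NTH1, PGM2, GPH1, GSY1, GSY2 and GLC3, against 36.7% of all genes, and above both for 0 of 10, against 36.6%. The spread of the arrays differed, and by percentile of its array GLC3 did not keep this order. It stood at the percentile 5.89 in shm2, and 9.99 and 3.08 in BY4741. The subunits TPS1, TPS3 and TSL1 differed from BY4741 by 0.23 ± 0.64, -0.04 ± 0.59 and -0.12 ± 0.89 (limma SE, n = 1 against 2). These values rest on the sign of the shm2 array. With it turned, the median difference was 2.35, GPH1 differed by 2.76, GSY1 by 2.91 and PGM2 by 3.82, and all 10 genes lay above both BY4741 arrays, against 37.1% of all genes.

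For gcn4 the median difference was 0.00 against -0.01 over all genes, with 5 of 10 negative. Its array lay below both BY4741 arrays for GSY1 and GSY2 (2 of 10, against 33.7% of all genes) and above both for PGM2 (1 of 10, against 29.4%). The differences were -0.92 ± 0.56, -0.85 ± 0.63 and 0.87 ± 0.50, each with a limma adjusted p = 1 (n = 1 against 2). For bas2 the median over 8 genes was -0.48 against -0.08 over all genes, and for bas1 the median over 6 genes was 0.15 against 0.11. Between bas1 and bas2, the median over 6 genes was 0.36 against -0.03, with NTH1 below on both bas1 arrays (1 of 6, against 19.7% of all genes) and TPS1 and TSL1 above (2 of 6, against 18.6%). By percentile of the array NTH1 overlapped, at 12.4 and 25.3 in bas1, and 10.5 and 47.2 in bas2. The smallest limma adjusted p of the set was 0.914 for bas1 minus bas2, 0.846 for bas2 minus BY4741 and 0.338 for bas1 minus BY4741.

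**Figure D3:**
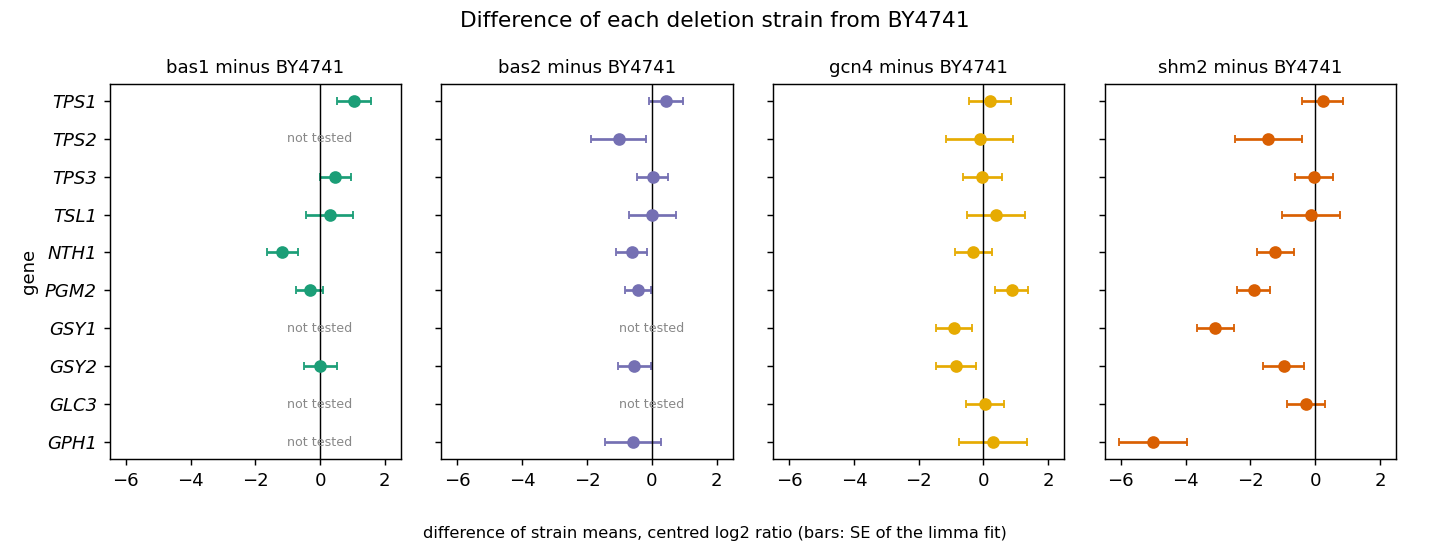
Difference of the strain means of centred log2 ratios from BY4741 (x axis) for each gene (y axis) in the 4 deletion strains, with the standard error of the limma fit as bars. Genes without a value on every array of both strains are marked as not tested. The shm2 differences of GPH1 (-5.00), GSY1 (-3.08) and PGM2 (-1.90) lie farthest from 0.

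The array titles differ in a running number and in their ending, and what either stands for is not stated. Among the numbers of full length, those of bas1 replicate 2, bas2 replicate 2 and shm2 are lower than those of the other arrays. The number of BY4741 replicate 3 has a digit fewer, so its place is not settled. Its leading digits are those of the higher-numbered arrays, with which it was placed, but its title ends like those of bas1 replicate 2, bas2 replicate 2 and shm2. With the number as a block the shm2 median difference from BY4741 was -0.32, and TPS2 differed by 0.62 in place of -1.45. With the ending as a block, an alternative chosen after seeing the data, the shm2 median was -1.0 and TPS2 differed by -1.11. Against BY4741 replicate 3 alone, the array with the same ending, the shm2 median was -1.21, with GPH1 at -4.03, GSY1 at -3.02 and PGM2 at -2.19, values with no test. The bas2 median difference was -0.51 within that ending and 0.31 within the other, and the bas1 one was -0.58 and 0.34. The bas2 median was -0.03 over 10 genes without bas2 replicate 2, and -0.17 over 8 genes without BY4741 replicate 3. The bas1 median was -0.47 without BY4741 replicate 1. Most spots without a value were on bas1 replicate 2 and bas2 replicate 2, with 5465 and 2302 of 12800.

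The other 23 genes of the pathway, from a list that holds the precursors' enzymes, glycogenin, the debranching enzyme, further trehalases and glycogen's regulatory subunits, had medians closer to the middle gene. These lay between -0.28 and 0.64 on the 8 arrays, and 0 of the genes passed limma's test in any comparison. The 0.64 was on bas1 replicate 2, where 12 of 23 had a value and the set's median was -0.68. On bas2 replicate 2, 18 of 23 had a value. In shm2, 16 of 23 were negative, against 50% of all genes, and 6 stood at -1 or lower, against 7.62%, with the sign as deposited. GLK1, glucokinase, stood at -1.41 and -1.08 in bas2, -1.20 in gcn4, -3.01 in shm2, and -2.03 and -0.14 in BY4741. In bas1 it was at -0.99 and 0.19. ATH1, the acid trehalase, stood at -1.18 in gcn4, -3.48 in shm2, and -0.99 and -0.40 in BY4741. On replicate 1 it was at -0.56 in bas1 and -0.64 in bas2, with no value on replicate 2 of either. Both were thus lowest on the shm2 array, as PGM2, GPH1 and GSY1 were.

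The hexokinase genes had opposite signs in bas2. HXK1, induced when glucose runs short, stood at -1.13 and -1.26 in bas2 and -2.23 in shm2, against -1.22 and -0.73 in BY4741. In bas1 it was at -0.64 and 0.65, and in gcn4 at -0.30. HXK2, the hexokinase of growth on glucose, stood at 1.52 and 2.83 in bas1 and 1.17 and 1.87 in bas2, against 0.24 and 0.91 in BY4741. In gcn4 it was at 0.52 and in shm2 at -0.03. GLC8, a regulator of the Glc7 phosphatase that activates glycogen synthase, stood at -1.46 and -1.80 in bas1, against 1.09 and 0.37 in BY4741. In bas2 it was at -0.37 and -0.02, in gcn4 at 0.65 and in shm2 at -0.93. The bas1 and bas2 arrays thus lay below both BY4741 arrays for GLC8 and above both for HXK2. The shm2 array lay below both for either gene. By percentile of the array HXK2 stood at 98.2 and 89.1 in bas1 and 97.5 and 95.1 in bas2. In BY4741 it stood at the percentiles 61.3 and 98.9, so the strains overlapped. The smallest limma adjusted p over the list was 0.338 for bas1 minus BY4741.

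Of 13 regulators in a further list, among them MSN2, MSN4, RIM15, SNF1 and subunits of protein kinase A, 12 were measured. Their medians lay between -0.93 on bas1 replicate 2, where 8 had a value, and 0.06 on gcn4, and 0 passed limma's test. On bas2 replicate 2, 10 had a value. MSN4 stood at -0.96 and -1.69 in bas1, -1.29 and -0.73 in bas2, 0.05 in gcn4, -0.39 in shm2, and -0.33 and -0.37 in BY4741. MSN2 lay between -1.22 on bas2 replicate 2 and 0.48 on bas1 replicate 1.

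Stress markers had medians below 0 on all 8 arrays, and ribosomal protein genes had medians away from 0 on some of them. The part of either list in the result was not tested. The median of 8 stress markers (4 of them measured on replicate 2 of bas1 and of bas2), which share no gene with the set, was -1.63 and -0.96 in bas1, -1.98 and -0.69 in bas2, -0.64 in gcn4, -1.29 in shm2, and -0.21 and -1.16 in BY4741. Like the trehalose and glycogen median it was negative on all 8 arrays, but the order of the arrays differed: the stress median was lowest on bas2 replicate 1 and the other on shm2. The stress markers at -1 or lower numbered 6 of 8 and 2 of 4 in bas1, against 11.1% and 21.4% of all genes. In bas2 they numbered 7 of 8 and 2 of 4 (3.94% and 14.8%), in gcn4 1 of 8 (16.4%) and in shm2 5 of 8 (7.62%). In BY4741 replicates 1 and 3 they numbered 3 of 8 and 5 of 8 (10.9% and 1.23%). The median of 133 cytosolic ribosomal protein genes lay between -0.04 and 1.05 and was positive on 7 arrays. It was close to the middle gene in bas1 (-0.04 and 0.08) and on bas2 replicate 1 (0.03). On the other arrays it was 0.64 (bas2 replicate 2), 0.88 (gcn4), 0.60 (shm2), and 1.05 and 0.28 (BY4741 replicates 1 and 3). The 2 lists thus parted in bas1 and on bas2 replicate 1, where the stress medians were -1.63, -0.96 and -1.98. They parted the other way on BY4741 replicate 1, with a stress median of -0.21 and a ribosomal one of 1.05.

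**Figure D4:**
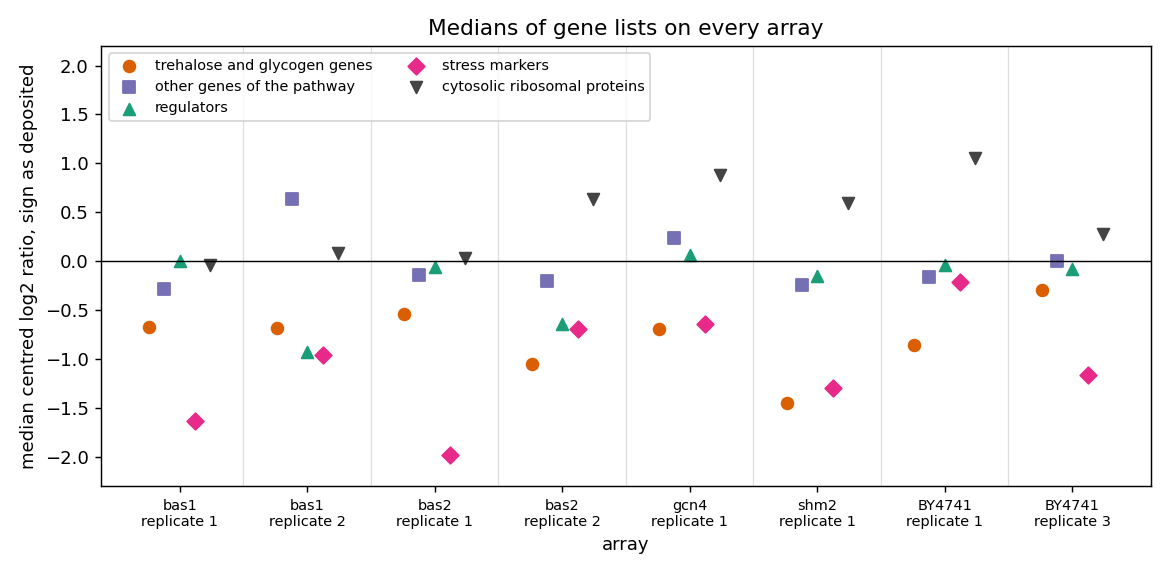
Median centred log2 ratio (y axis, sign as deposited) of 5 gene lists on each array: the 10 trehalose and glycogen genes, 23 other genes of the pathway, 12 regulators, 8 stress markers and 133 cytosolic ribosomal protein genes. The trehalose and glycogen medians lie between -1.45 and -0.29, and the medians of the other pathway genes between -0.28 and 0.64.

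TSL1, PGM2 and GSY2 were negative on all 8 arrays, 3 of the 6 set members measured on all of them, against 2.18% of 3168 genes. With BY4741 replicate 1 turned none of these 3 was negative on all 8 arrays, and NTH1 was the 1 set member that was (0.537% of genes). With bas1 replicate 1 turned TPS3 was the only one (1.36%), and with both bas1 arrays or the shm2 array turned there were 0 of 6 (1.01% and 1.1%). GPH1 ran closest to NTH1, the trehalase gene (r = 0.85 over 7 arrays), and to GSY1 (r = 0.80 over 6 arrays). TPS2 ran closest to GSY1 (r = 0.89 over 6 arrays). These are descriptions over arrays that share strains and media, and the shm2 array held the lowest value of GPH1, GSY1 and PGM2.

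The mean profile of the 6 set members with a value on all 8 arrays, TPS1, TPS3, TSL1, NTH1, PGM2 and GSY2, ran from -1.31 on shm2 to -0.34 on BY4741 replicate 3. Among 3162 other genes, the profiles most like it over the 8 arrays were those of CPR1, a cyclophilin (Pearson r = 0.89, Spearman rho = 0.81), UGA1, the GABA transaminase (0.88 and 0.81), and STI1, an Hsp90 cochaperone (0.87 and 0.88). PAU8, a member of a family of near-identical genes whose spots may share signal, followed with r = 0.87 and rho = 0.83, then DOA1 with 0.85 and 0.67 and GLK1 with 0.83 and 0.76. UGA1 lay between -1.19 and 0.06, and GLK1 was the 1 gene of the 6 that also belongs to the pathway list. These 6 are the highest of 3162 correlations over 8 arrays. Whether they exceed those of unrelated profiles was not tested.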

How the data were processed

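Per the labels, RNA of 5 strains was hybridised on 8 arrays of 2 colours, scanned on a GenePix 4000B with GenePix Pro 3.0 as the software. For each spot the authors deposited a log2 ratio of its channels. Not given in the sources used here were background correction, normalization, dyes and the direction of the ratio. Of 12800 spots, 11138 had 1 gene symbol, giving 5539 genes. Spots of a gene were averaged and each array was centred on its median gene, which lay between -0.78 and 0.65 before centring. limma 3.58.1 in R 4.3.3 fitted 5 strain means over the 8 arrays, on genes with a value on every array compared, with Benjamini-Hochberg adjustment over all genes and a threshold of 0.05. Tables were made with Python 3.11.15, pandas 2.3.3 and numpy 2.4.6. The fit was tested on simulated data with the same noise on every array. The SD over genes of the real arrays ran from 0.379 to 2.07, so that test does not cover their unequal spread.

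The members and lists were chosen with earlier results of these data known. All 10 members are named. Other pathway genes and regulators are named with values where they stood at -1 or lower, or at 1 or higher, on every array of bas1, bas2 or BY4741, or on both gcn4 and shm2. PGM1, MSN2, MSN4 and GCV1 were added after their values were seen. The 6 genes most like the set were taken by Pearson correlation over 8 arrays. Alternatives changed the centring, the scale, the spots, the genes, the arrays, the blocks and the signs. The blocks by title ending and the turned shm2 array were chosen after seeing the data. Promoter motifs and protein sequences were not used here.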

Additional observations from a re-analysis of the deposited data

Results flagged for a closer look

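GPH1 in bas1 and shm2, and GSY1 in every deletion strain, lay below 0 on each array of the strain with a value. Both BY4741 arrays lay above 0 for either gene, with the signs as deposited. Of all genes, 15.8% had this pattern for bas1, 7.28% for bas2, 5.55% for gcn4 and 14.8% for shm2. GPH1 did not have it in gcn4 (1.40) or in bas2 (-0.02 and 1.08). GPH1 was negative in bas1 and shm2 and positive in BY4741, with differences of -2.37 for bas1 (1 array with a value) and -5.00 for shm2 (1 array). GSY1 was negative in every deletion strain and positive in BY4741, with differences of -0.33 for bas1, -0.46 for bas2, -0.92 for gcn4 and -3.08 for shm2, each from 1 array of the deletion strain. The differences of bas1 and bas2 were not tested. For gcn4 and shm2 the limma fit gave an adjusted p = 1. The BY4741 values of GSY1, 0.14 and 0.03, lie close to 0, and without centring its bas1 and bas2 spots stood on both sides of 0.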

How the results depend on the processing

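No gene of the set passed the test in the main fit or under any alternative, and of 1548 alternative values of single genes 1403 kept their sign and 145 changed it. The counts of all genes called, 0 in each comparison, became 1 in bas1 and 13 in gcn4 with no centring. With only the later title series (BY4741 replicate 3 placed in it by its leading digits) they became 1 in bas1, 122 in gcn4, 2 in BY4741, 1 in bas1 minus BY4741 and 21 in gcn4 minus BY4741. With only the arrays of the strains compared they became 2 in BY4741 and 21 in gcn4 minus BY4741, and with both bas1 signs turned 2 in bas1 minus bas2. Leaving out 1 replicate gave 0 to 641 in bas1, 0 to 4 in gcn4, 0 to 493 in bas1 minus BY4741 and 0 to 158 in bas1 minus bas2. The cause was not tested.

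The set's median without centring was -0.08 in BY4741, and its differences from BY4741 were -0.62 in bas1, -1.04 in bas2, -0.74 in gcn4 and -1.72 in shm2. Scaling to a common median absolute deviation gave -1.82 in shm2, 0.56 in bas1 minus BY4741 and 0.73 in bas1 minus bas2, and the mean in place of the median gave -1.80 in shm2. For shm2 minus BY4741, the members on all 8 arrays gave -0.55 and the genes on all 8 arrays -0.64. The replicate block gave 0.79 for bas1 and 0.24 for bas2 minus BY4741. Deviations of same-numbered bas1 and bas2 arrays correlated at 0.54, but with 2 shared numbers the pairing is only a hint. The title series as a block gave -0.11 for bas2 and -0.32 for shm2 minus BY4741, and the later series only gave -0.03 for bas2. The title ending as a block, chosen after seeing the data, kept the medians within the spread between replicates, and within endings bas1 minus BY4741 was -0.58 and bas2 minus BY4741 0.31. With shm2 turned, also chosen later, the median was 1.45 in shm2 and 2.35 in shm2 minus BY4741. With BY4741 replicate 1 turned, the median was 0.23 in BY4741, and the differences were -0.60, -1.11, -0.90 and -2.07 in bas1, bas2, gcn4 and shm2. With bas1 replicate 1 turned it was -0.06 in bas1, 0.54 in bas1 minus BY4741 and 0.77 in bas1 minus bas2. With both bas1 arrays turned these were 0.64, 0.73 and 1.28. Leaving out 1 replicate gave -1.05 to -0.54 in bas2, -0.47 to 0.46 in bas1 minus BY4741 and -0.48 to -0.03 in bas2 minus BY4741.

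The members at -1 or lower on every array numbered 0 in bas1 without centring, after scaling and with 1 or both bas1 signs turned. Over the genes on all 8 arrays, which hold 6 members, they numbered 1 of 6 in bas1 and 4 of 6 in shm2. They numbered 0 in bas2 and 4 in gcn4 without centring, 0 in gcn4 and 2 in BY4741 after scaling, and 0 in shm2 with its sign turned. Leaving out 1 replicate gave 2 to 4 in bas2 and 0 to 4 in BY4741. The share of all genes under these alternatives is not given, so the counts cannot be set against all genes. Strain means have no block value, gcn4 and shm2 alone could not be fitted, and shm2 has no array in the later series.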
